A study of Mus musculus with 18 samples.

Results

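The Meis, Pbx and Pknox genes encode partner proteins of Hox transcription factors, and 8 of them were followed through retinoic acid differentiation of mouse embryonic stem cells (ESCs). The 8 genes, Meis1, Meis2, Meis3, Pbx2, Pbx3, Pbx4, Pknox1 and Pknox2, were taken by name from a count table of 21995 genes. Expression was measured by bulk RNA-seq of total RNA. ESCs are pluripotent cells that can give rise to every lineage of the embryo, and retinoic acid is a vitamin A derivative that acts through nuclear receptors and moves ESCs out of pluripotency. A parental line was compared with cells labelled Oct1_cKO, a knockout of Oct1, the octamer-binding POU factor encoded by Pou2f1. The 6 groups were parental and Oct1_cKO cells at day 0, before differentiation, and each genotype after 2 and 6 days with 1.5 ug/ml retinoic acid on 0.01% gelatin. Each group held 3 libraries. The labels give neither the deleted exons, the agent that induced the deletion nor the number of clones behind each line, and the design text calls the plated cells depleted without naming what was removed.

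Meis, Pbx and Pknox proteins belong to the TALE class of homeodomain proteins, named for an extended loop in the homeodomain. Pbx proteins bind DNA with Hox proteins and sharpen their choice of sites, while Meis and Pknox proteins bind Pbx through a domain outside the homeodomain and help to bring it into the nucleus. In the embryo these complexes pattern the hindbrain, limbs and other segments along the body axis, and retinoic acid is known to induce both Hox and Meis genes in differentiating stem cells. The values below are RNA levels, and protein was not measured.

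The DNA around the start site, most of it upstream, was available for 5 of the 8 genes (Meis1, Meis2, Meis3, Pbx2 and Pbx4) in a RefSeq promoter table of build GRCm38.p6. A stretch is printed for Meis1, Pbx2 and Pbx4, because these genes gave the 3 kinds of result at day 2 in the cKO cells: lower, not called and higher. Each stretch lies upstream of the RefSeq start and outside every exon of the GENCODE M21 annotation, runs 5′ to 3′ on the strand of the gene, and has its CpG pairs in capitals. The stretch of Meis1 is chr11:19018986-19019219 on the minus strand. That of Pbx2 is chr17:34592009-34592258 on the plus strand, inside the span of the gene as GENCODE M21 gives it and between its exons. That of Pbx4 is chr8:69832374-69832490 on the plus strand.
Meis1: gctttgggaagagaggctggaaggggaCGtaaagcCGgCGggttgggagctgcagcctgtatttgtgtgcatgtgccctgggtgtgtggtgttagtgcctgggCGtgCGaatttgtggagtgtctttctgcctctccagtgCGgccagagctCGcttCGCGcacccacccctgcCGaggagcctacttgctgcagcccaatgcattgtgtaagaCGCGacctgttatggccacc
Pbx2: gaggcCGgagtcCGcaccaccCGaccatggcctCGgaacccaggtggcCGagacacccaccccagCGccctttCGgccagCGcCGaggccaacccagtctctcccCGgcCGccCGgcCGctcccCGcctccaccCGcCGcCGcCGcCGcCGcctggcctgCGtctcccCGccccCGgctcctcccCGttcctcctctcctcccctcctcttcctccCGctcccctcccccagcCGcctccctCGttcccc
Pbx4: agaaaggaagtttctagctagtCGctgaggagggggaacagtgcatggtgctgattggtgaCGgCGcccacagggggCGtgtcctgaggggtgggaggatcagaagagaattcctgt
The printed stretch of Pbx2 was the richest in G and C of the 3, at 77.6% with 27 CpG in 250 bases. That of Meis1 held 60.3% and 12 CpG in 234 bases, and that of Pbx4 held 57.3% and 4 CpG in 117 bases. The full window of 300 bases runs past the RefSeq start, so it also holds transcribed bases. Its GC content was 58.3% for Meis1, 51.0% for Meis2, 66.7% for Meis3, 76.0% for Pbx2 and 59.3% for Pbx4. The median was 52.7% over the 32851 promoters of the table. The windows held 13 to 29 CpG, beside a median of 7. Both strands of these 5 windows were searched for the Meis and Pknox core TGACAG, found in 19.2% of all promoters of the table, for the Pbx and Hox site TGATNNAT (8.85%), for the octamer ATGCAAAT (1.74%) and for the retinoic acid receptor repeats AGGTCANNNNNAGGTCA, AGGTCANNNNNAGTTCA, AGTTCANNNNNAGGTCA and AGTTCANNNNNAGTTCA (0.0396% for the 4 together). None of these letters occurred in the 5 windows, which says nothing of sites elsewhere.

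The libraries held 13694126 to 19296966 counts, and all 8 genes passed the filter on low counts, with 9 to 8683 counts per library. Levels are given as CPM, counts per 1000000 counts of effective library size. Differences are log2 fold changes with a standard error (SE) from edgeR's quasi-likelihood test, and a gene was called where its Benjamini-Hochberg adjusted p over 18352 tested genes was under 0.05. No label says that replicates came from separate cultures, so the p-values measure only how these libraries vary, and that spread may be technical. Pou2f1 itself was lower in each cKO group (62.4 to 88.2 CPM against 124 to 135 in parental cells at day 0) and was not lost, with differences of -0.70 ± 0.10, -0.78 ± 0.10 and -0.60 ± 0.11 at days 0, 2 and 6 (edgeR adjusted p = 1.36e-05, 2.81e-06 and 8.6e-05). Replicate 3 of the cKO group at day 0 stood apart, with a chi-square per degree of freedom of 10.434 to 10.787 against its partners and at most 6.783 in the other pairs. Without it 0 of the 8 calls changed in each of the 3 comparisons that use its group, and the largest shift of a log2 fold change was 0.16. The 1452 tested genes of chromosome 11 were lower in cKO cells, with medians of -0.36, -0.43 and -0.42 at days 0, 2 and 6, while medians of the other autosomes lay between -0.05 and 0.13. Meis1 is the one gene of the 8 on that chromosome.

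**Figure D1:**
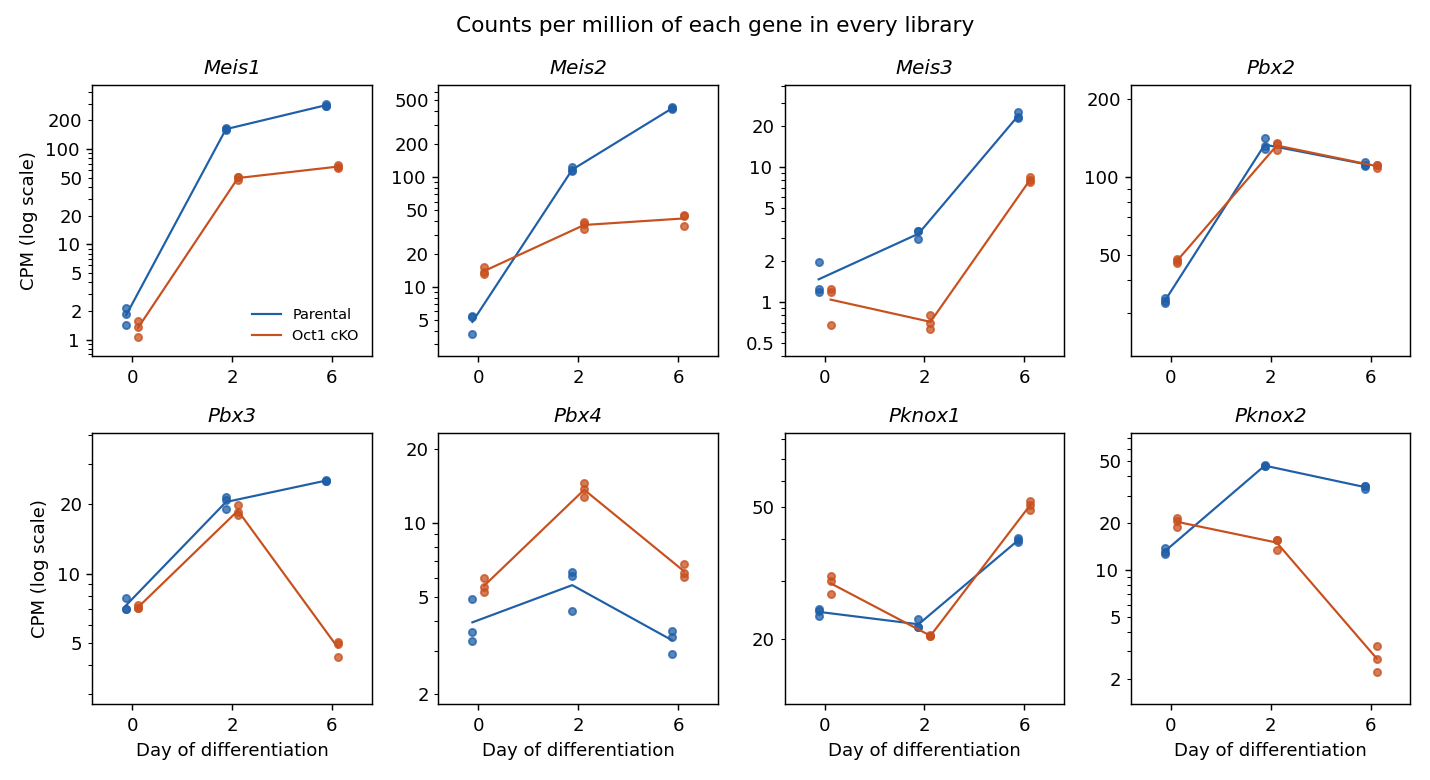
CPM on a log axis for each gene in every library, by day of differentiation; points are libraries, lines join the group means, blue is parental and orange Oct1 cKO (3 libraries a group). Meis1 and Meis2 climbed steeply in parental cells to means of 289 and 423 CPM at day 6, while cKO means reached 65.5 and 42.1 CPM.

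In parental cells the Meis genes climbed more than the other 5 genes by day 6, and all 3 stood lower in Oct1 cKO cells at days 2 and 6. Meis1 and Meis2 ended 4.41-fold and 10-fold below the parental level, and Meis3 2.97-fold below. In a bulk sample, fewer cells that express a gene and less RNA per cell cannot be told apart.

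Meis1, a cofactor needed for blood stem cells and vessel development in the embryo, lies on chr11:18879817-19018985 (GRCm38, minus strand, ENSMUSG00000020160). At day 0 it was nearly silent, with 2.13, 1.86 and 1.43 CPM in the parental libraries and 1.35, 1.57 and 1.07 CPM in the cKO libraries. These ranges overlapped, and the difference of -0.46 ± 0.21 was not called (edgeR adjusted p = 0.0995), though it was called without parental replicate 3 (-0.60, adjusted p = 0.0458, with 0.0458 to 0.38 over the alternatives). At day 2 its level was 158, 165 and 162 CPM in parental and 47.3, 51.2 and 50.5 CPM in cKO libraries, 2 ranges far apart. The cKO level was lower, with a log2 fold change of -1.70 ± 0.05 (edgeR adjusted p = 2.19e-26). At day 6 its level was 287, 295 and 285 CPM in parental and 65.4, 67.5 and 63.7 CPM in cKO libraries, again without overlap (-2.14 ± 0.05, adjusted p = 3.84e-31). The differences at days 2 and 6 went well past the chromosome 11 medians of -0.43 and -0.42, whereas the value at day 0 was close to its median of -0.36. Meis1 rose 89.2-fold from day 0 to day 2 in parental cells (6.48 ± 0.08, adjusted p = 3.55e-39) and 37.7-fold in cKO cells (5.24 ± 0.11, adjusted p = 1.42e-32). From day 2 to day 6 it rose further in both, by 0.84 ± 0.05 (adjusted p = 3.72e-19) and 0.40 ± 0.05 (adjusted p = 1.81e-08). Gm37818, a predicted gene of the same strand, shares 1029 exon bases with Meis1. It held 80 to 110 counts in parental and 22 to 28 in cKO libraries at day 2, so reads in the shared bases may have been split between both.

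Meis2, which takes part in neural crest, limb and heart development, lies on chr2:115863064-116065839 (minus strand, ENSMUSG00000027210). At day 0 it was the other way round from the later days: its level was 3.75, 5.29 and 5.4 CPM in parental and 13.8, 15.1 and 13.2 CPM in cKO libraries. Each cKO library lay above each parental one (1.53 ± 0.13, edgeR adjusted p = 1.85e-12), a 2.89-fold higher level before retinoic acid. At day 2 its level was 115, 123 and 113 CPM in parental and 34.0, 37.3 and 38.8 CPM in cKO libraries. The order had turned, with the cKO level now lower (-1.67 ± 0.07, adjusted p = 5.64e-21). At day 6 its level was 432, 423 and 414 CPM in parental and 45.7, 44.6 and 36.0 CPM in cKO libraries (-3.33 ± 0.07, adjusted p = 8.59e-31). In parental cells Meis2 thus rose at both steps, by 4.60 ± 0.09 (adjusted p = 1.3e-30) and by 1.85 ± 0.06 (adjusted p = 1.02e-24). In cKO cells it rose by 1.39 ± 0.09 to day 2 (adjusted p = 4.99e-16), and the later step was small, at 0.20 ± 0.07 with overlapping libraries (adjusted p = 0.0139). That last call depended on the scaling, with 0.01 for library sizes alone (adjusted p = 0.914), and was also lost without cKO day 2 replicate 1 (0.14, adjusted p = 0.119) and without cKO day 6 replicate 1 (0.13, adjusted p = 0.125) or 2 (0.16, adjusted p = 0.0815).

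Meis3, a Meis gene linked to hindbrain patterning in vertebrate embryos, lies on chr7:16175090-16186504 (plus strand, ENSMUSG00000041420) and came up later than the other two. Its day 0 levels were 1.25, 1.97 and 1.18 CPM in parental and 0.677, 1.25 and 1.19 CPM in cKO libraries, which overlapped (-0.50 ± 0.26, edgeR adjusted p = 0.113, not called). At day 2 its level was 2.94, 3.33 and 3.34 CPM in parental and 0.634, 0.7 and 0.802 CPM in cKO libraries. The cKO libraries were all lower (-2.16 ± 0.23, adjusted p = 1.36e-10). They held only 10, 12 and 12 counts of Meis3, so the sizes of differences that use them are imprecise. At day 6 its level was 25.3, 23.6 and 23.0 CPM in parental and 8.4, 8.05 and 7.75 CPM in cKO libraries, also apart (-1.57 ± 0.10, adjusted p = 1.76e-17). Parental cells raised Meis3 at both steps (1.11 ± 0.19, adjusted p = 2.06e-06, then 2.90 ± 0.11, adjusted p = 2.66e-24). In cKO cells the value to day 2 was -0.56 ± 0.32 (adjusted p = 0.108, not called, but called without cKO day 0 replicate 1 at -0.78, adjusted p = 0.0346), and the rise to day 6 was 3.49 ± 0.19 (adjusted p = 4.47e-19).

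The 3 Pbx genes, whose proteins are the direct DNA-binding partners of Hox proteins, behaved differently from one another. Pbx2 reached overlapping levels in both genotypes by day 2, Pbx3 fell in cKO cells after day 2, and Pbx4 was higher in cKO cells at every day.

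Pbx2, a broadly expressed Pbx gene, lies on chr17:34591266-34597400 (plus strand, ENSMUSG00000034673), with the promoter stretch rich in CpG printed above. At day 0 its level was 34.1, 33.4 and 32.7 CPM in parental and 46.6, 47.4 and 48.5 CPM in cKO libraries, without overlap. The cKO level was higher by 0.51 ± 0.06 (edgeR adjusted p = 1.12e-09). At day 2 the libraries held 128, 141 and 131 CPM in parental and 135, 127 and 134 CPM in cKO cells, and at day 6 its level was 111, 114 and 110 CPM against 111, 108 and 111 CPM. The ranges overlapped on both days, with differences of -0.01 ± 0.05 (adjusted p = 0.829) and -0.02 ± 0.05 (adjusted p = 0.758) that were not called. With library sizes alone both were called lower (-0.20, adjusted p = 0.000136, and -0.22, adjusted p = 4.08e-05), a setting that moved the median of all genes by -0.19 on each day. Pbx2 rose to day 2 in parental cells (2.0 ± 0.05, adjusted p = 1.8e-29) and in cKO cells (1.48 ± 0.05, adjusted p = 2.27e-25). From day 2 to day 6 it fell by 0.26 ± 0.05 in parental (adjusted p = 4.28e-06) and 0.26 ± 0.05 in cKO cells (adjusted p = 4.22e-06). Gpsm3, on the same strand, shares 227 exon bases with Pbx2 and held 33 to 82 counts per library.

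Pbx3, known for its part in hindbrain neurons that control breathing, lies on chr2:34171457-34373142 (minus strand, ENSMUSG00000038718). Its libraries held 7.81, 7.03 and 7.01 CPM in parental and 7.07, 7.06 and 7.28 CPM in cKO cells at day 0, and 19.1, 21 and 21.5 against 18, 18.6 and 19.9 CPM at day 2. The genotypes overlapped on both days, and differences of -0.03 ± 0.11 (edgeR adjusted p = 0.876) and -0.12 ± 0.07 (adjusted p = 0.143) were not called. The value at day 2 was called without parental day 2 replicate 1 (-0.20, adjusted p = 0.037) and with library sizes alone (-0.31, adjusted p = 0.000341). At day 6 its level was 25.4, 25.3 and 25.6 CPM in parental and 5.06, 4.92 and 4.32 CPM in cKO libraries. The cKO libraries were thus below their own day 0 level, and the difference was -2.41 ± 0.09 (adjusted p = 4.26e-24), or 5.32-fold. Both genotypes raised Pbx3 to day 2, by 1.49 ± 0.09 (adjusted p = 3.23e-18) and 1.40 ± 0.09 (adjusted p = 3.1e-16). The later step was 0.31 ± 0.07 in parental cells (adjusted p = 0.000113, but 0.14 and adjusted p = 0.0733 with library sizes alone) and -1.98 ± 0.10 in cKO cells (adjusted p = 1.62e-20).

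Pbx4, a Pbx gene best known from the testis in the adult mouse, lies on chr8:69832491-69872292 (plus strand, ENSMUSG00000031860). At day 0 the libraries held 3.31, 3.6 and 4.9 CPM in parental and 5.26, 5.49 and 5.96 CPM in cKO cells. They did not overlap (0.51 ± 0.16, edgeR adjusted p = 0.00716), and the call was lost without parental replicate 1 (0.40, adjusted p = 0.0537). At day 2 its level was 4.39, 6.31 and 6.08 CPM in parental and 13.8, 14.6 and 12.8 CPM in cKO libraries, the widest gap of the 3 days (1.31 ± 0.12, adjusted p = 3.7e-12). At day 6 its level was 3.43, 3.63 and 2.92 CPM against 6.79, 6.02 and 6.29 CPM, with cKO libraries still above (0.93 ± 0.15, adjusted p = 8.05e-07). In both genotypes Pbx4 peaked at day 2. The rise was 0.50 ± 0.15 in parental cells (adjusted p = 0.00268, with overlapping libraries) and 1.30 ± 0.13 in cKO cells (adjusted p = 1.48e-11). From day 2 to day 6 it fell by 0.74 ± 0.15 (adjusted p = 2.89e-05) and 1.11 ± 0.12 (adjusted p = 1.4e-10).

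The 2 Pknox genes, also called Prep, encode proteins that bind Pbx in place of Meis, and they went opposite ways at day 6. Pknox1 was slightly higher in cKO cells, and Pknox2 was the gene of the 8 with the largest decrease, 12.5-fold.

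Pknox1, which is widely expressed and required in the early epiblast, lies on chr17:31564734-31607693 (plus strand, ENSMUSG00000006705). At day 0 the libraries held 24.7, 24.4 and 23.5 CPM in parental and 29.9, 31.1 and 27.3 CPM in cKO cells (0.28 ± 0.07, edgeR adjusted p = 0.000504). At day 2 its level was 21.8, 21.8 and 23.0 CPM against 20.4, 20.6 and 20.4 CPM, and at day 6 its level was 39.9, 39.2 and 40.3 CPM against 49.2, 50.8 and 52.3 CPM. The ranges did not overlap on any of the 3 days, with cKO libraries higher at days 0 and 6 and slightly lower at day 2. The day 6 difference was 0.35 ± 0.06 (adjusted p = 7.38e-07), or 0.15 with library sizes alone, still called. The day 2 value of -0.12 ± 0.07 was not called (adjusted p = 0.13), but was called with the DESeq2 size factors (-0.15, adjusted p = 0.0461), with library sizes alone (-0.31, adjusted p = 0.00017) and with scaling factors computed without chromosome 11 (-0.16, adjusted p = 0.0405). In parental cells the value from day 0 to day 2 was -0.12 ± 0.07 (adjusted p = 0.0794, not called). Of 24 alternatives 7 called it, 6 of them lower (-0.17 without parental day 2 replicate 3, adjusted p = 0.0323), and library sizes alone called it higher (0.21, adjusted p = 0.00364), where the median of all genes moved by 0.34. In cKO cells Pknox1 fell to day 2 by 0.52 ± 0.07 (adjusted p = 1.3e-08). It rose to day 6 in both, by 0.84 ± 0.06 in parental (adjusted p = 1.66e-15) and 1.31 ± 0.06 in cKO cells (adjusted p = 5.36e-21). The antisense gene AC166172.4 shares 155 exon bases with Pknox1 and held 1 to 13 counts per library, and the strand setting of the counting is not given in the sources used here.

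Pknox2, a relative with a narrower tissue range than Pknox1, lies on chr9:36890982-37147407 (minus strand, ENSMUSG00000035934). At day 0 its level was 12.6, 13.8 and 13.1 CPM in parental and 21.7, 18.9 and 20.5 CPM in cKO libraries. As for Meis2, the cKO cells started higher (0.63 ± 0.09, edgeR adjusted p = 8.02e-08). At day 2 its level was 46.3, 46.7 and 47.4 CPM in parental and 15.7, 13.5 and 15.7 CPM in cKO libraries, and the order had turned (-1.65 ± 0.07, adjusted p = 2.85e-21). At day 6 its level was 34.5, 33.1 and 34.6 CPM against 2.2, 3.24 and 2.67 CPM, with no overlap (-3.65 ± 0.10, adjusted p = 2.48e-28). Parental cells raised Pknox2 to day 2 (1.83 ± 0.07, adjusted p = 3.23e-23) and lowered it in part after that (-0.46 ± 0.06, adjusted p = 3.32e-08). In cKO cells it fell at both steps, by 0.45 ± 0.08 (adjusted p = 1.02e-05) and 2.46 ± 0.12 (adjusted p = 8.56e-21).

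**Figure D2:**
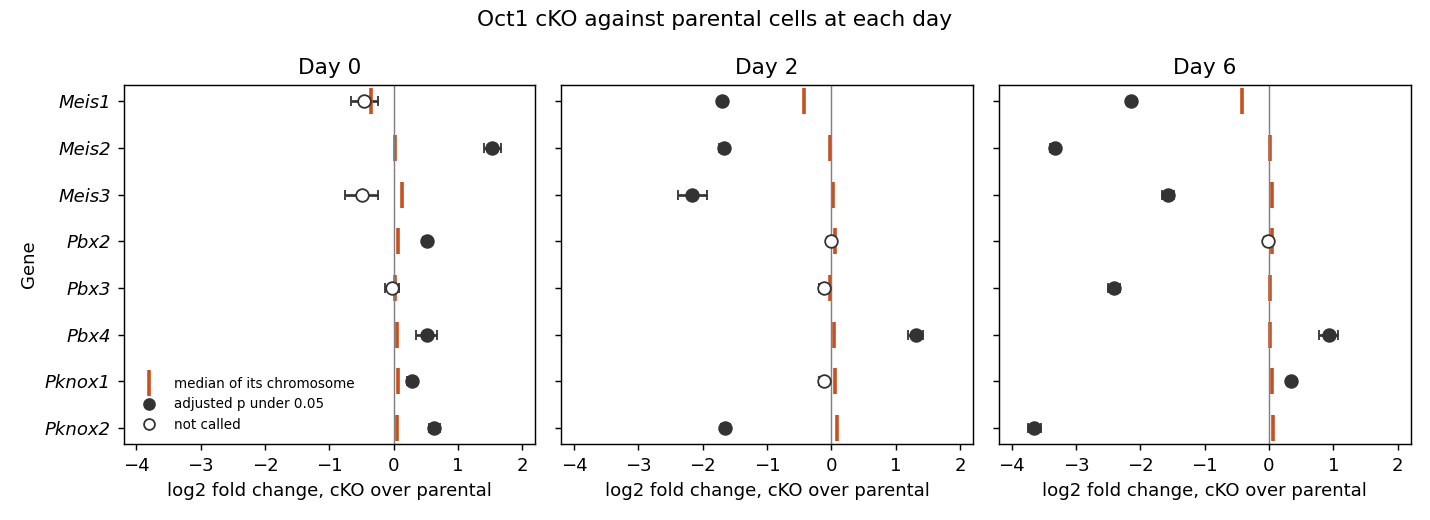
Log2 fold change of Oct1 cKO over parental cells for each gene at days 0, 2 and 6, with its SE; filled points are called, open points are not, and orange ticks mark the median of all tested genes on the same chromosome. Meis2 and Pknox2 move from right of 0 at day 0 (1.53 and 0.63) to the far left at day 6 (-3.33 and -3.65).

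Counted over the 8 genes, the genotypes differed toward higher levels at day 0 and lower levels later. At day 0, 5 of 8 were called higher in cKO cells and 0 lower, where 26.4% of all tested genes were called higher and 27.0% lower. The 3 that were not called were Meis1, Meis3 and Pbx3. At day 2, 1 was called higher (Pbx4) and 4 lower (Meis1, Meis2, Meis3 and Pknox2), beside 33.7% and 33.6% of all genes. At day 6, 2 were called higher (Pbx4 and Pknox1) and 5 lower (Meis1, Meis2, Meis3, Pbx3 and Pknox2), beside 36.7% and 37.8%. The median log2 fold change over the 8 genes was 0.39, -0.89 and -1.86 at days 0, 2 and 6, and the median over all tested genes was 0.00, -0.01 and 0.00. With library sizes alone the calls over all genes leaned lower, with 4263 higher and 8187 lower at day 2 (6187 and 6172 with scaling factors) and 5241 higher and 8414 lower at day 6 (6740 and 6940). At day 2 that setting called all 8 of the genes, 1 higher and 7 lower. With so many genes called in every comparison, a call alone did not set these 8 genes apart, and their sizes and directions carry the description.

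Over the step from day 0 to day 2, parental cells had 7 of the 8 genes called higher and 0 lower (43.2% and 37.7% of all tested genes), and cKO cells had 5 higher and 2 lower (41.0% and 35.5%). The medians over the 8 genes were 1.66 and 1.35, each beside 0.08 over all genes. With library sizes alone, 10130 genes were called higher and 4589 lower in parental cells, against 7924 and 6913 with scaling factors. From day 2 to day 6, parental cells had 5 higher and 3 lower (42.6% and 36.9%), with Pbx2, Pbx4 and Pknox2 falling, and cKO cells had 4 higher and 4 lower (39.6% and 41.6%), with Pbx3 falling as well. The medians were 0.58 and -0.03, beside 0.06 and -0.04. With library sizes alone the lean over all genes turned in parental cells, to 6469 higher and 8141 lower against 7826 and 6777. The 2 steps of a genotype share the day 2 libraries, so they are not independent of each other.

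Whether the steps differed between genotypes was tested as the change in cKO cells minus the change in parental cells. From day 0 to day 2 this difference was called lower for 6 of the 8 genes and higher for 1 (26.9% and 30.1% of all tested genes, or 6317 lower and 4094 higher with library sizes alone against 4937 and 5526). It was largest for Meis2 (-3.21 ± 0.14, edgeR adjusted p = 1.72e-19) and Pknox2 (-2.27 ± 0.11, adjusted p = 2.72e-19). For Meis1, which rose strongly in both, it was -1.24 ± 0.23 (adjusted p = 1.27e-05), while Pbx3 was not called (-0.10 ± 0.13, adjusted p = 0.563) and Pbx4 was higher (0.80 ± 0.20, adjusted p = 0.000892). From day 2 to day 6 the difference was called lower for 4 genes and higher for 1 (32.0% and 31.5%). The 4 were Pbx3 (-2.29 ± 0.12, adjusted p = 4.84e-19), Pknox2 (-2.0 ± 0.14, adjusted p = 1.72e-15), Meis2 (-1.65 ± 0.09, adjusted p = 5.48e-17) and Meis1 (-0.44 ± 0.07, adjusted p = 1.09e-06), and the gene called higher was Pknox1 (0.47 ± 0.09, adjusted p = 1.62e-05). Meis3 narrowly missed the threshold (0.59 ± 0.27, adjusted p = 0.0538) and was called in 10 of 24 alternatives. Pbx2 was not called (0.00, adjusted p = 0.964), nor was Pbx4 (-0.37 ± 0.20, adjusted p = 0.0947).

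**Figure D3:**
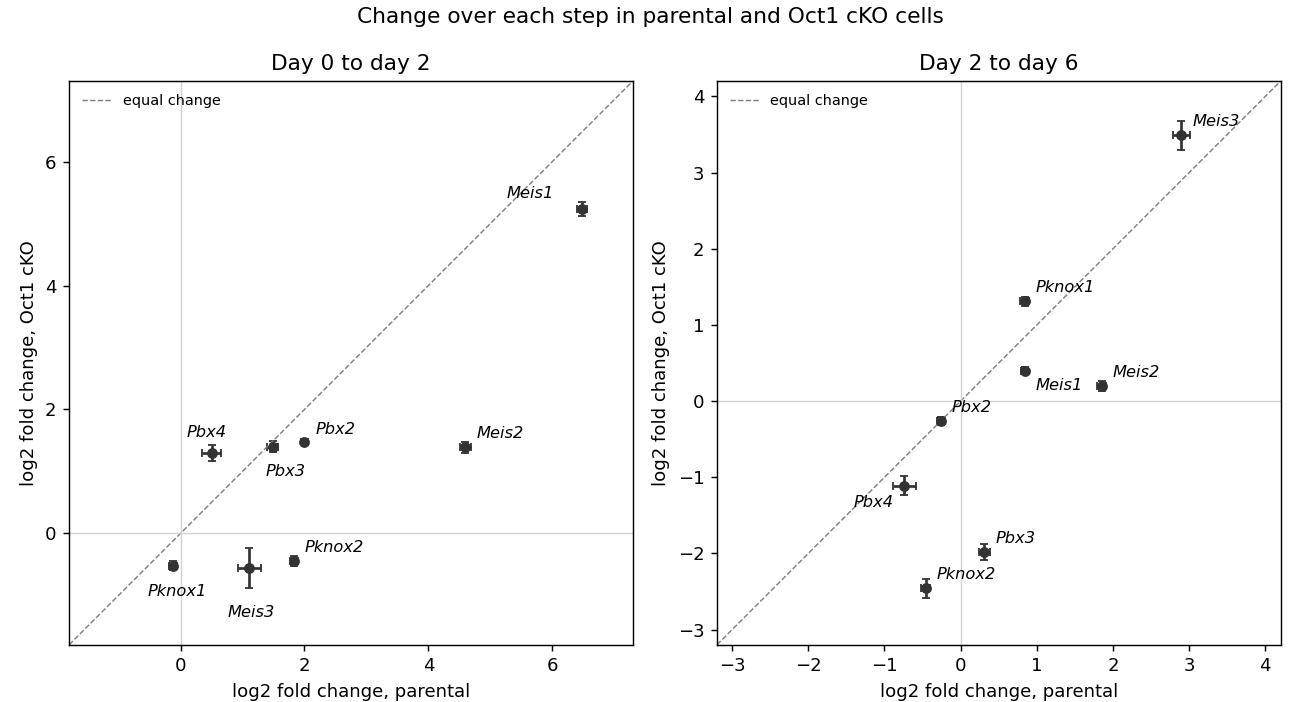
Log2 fold change of each gene over a step in Oct1 cKO cells (vertical axis) against the same step in parental cells (horizontal axis), with SE bars; the dashed line marks equal change. From day 0 to day 2 Meis2 and Pknox2 lie far below the line (4.60 against 1.39 and 1.83 against -0.45), and from day 2 to day 6 Pbx3 and Pknox2 do (0.31 against -1.98 and -0.46 against -2.46).

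To compare levels between genes, CPM were divided by the exon length of each gene, which ranged from 2.22 kb for Pbx4 to 12 kb for Meis2. That length joins all annotated exons of a gene and may differ from the transcripts expressed here. The orders and shares below depend on it, and the spread of the libraries does not measure that. By CPM alone, Meis1 stood above Pbx2 in parental cells at day 2 (means of 162 and 133), the reverse of their order per kb. Before retinoic acid, Pbx2 led the parental cells with 9.18 ± 0.198 CPM per kb (SD, n = 3), followed by Pknox1 (3.49) and Pbx4 (1.78). Pknox2 (1.28) and Pbx3 (1.19) overlapped in their libraries, as did Meis3 (0.462) and Meis2 (0.4), and Meis1 was last at 0.171. By day 6 the order of the parental cells was Meis2 (35.1 ± 0.762), Pbx2 (30.7 ± 0.622), Meis1 (27.4 ± 0.472), Meis3 (7.56), Pknox1 (5.74), Pbx3 (4.17), Pknox2 (3.3) and Pbx4 (1.5), with no overlap between neighbours. The Meis genes had thus moved from the last 3 places of the order to 3 of its first 4.

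In cKO cells Pbx2 stayed first at every day, with 13, 36.3 and 30.3 CPM per kb. At day 0 it was followed by Pknox1 (4.25), Pbx4 (2.51), Pknox2 (1.97), Pbx3 and Meis2 (1.17 and 1.16, overlapping), Meis3 (0.328) and Meis1 (0.126). At day 2 Pbx4 was next (6.2 ± 0.407), ahead of Meis1 (4.72 ± 0.195), whereas parental cells at that day had Pbx2 (36.6), Meis1 (15.3) and Meis2 (9.72) in front and Pbx4 (2.52) next to last. Pbx3 (3.08), Meis2 (3.05) and Pknox1 (2.95) overlapped with their neighbours in the cKO order at day 2. At day 6 Pknox1 (7.32) and Meis1 (6.22) followed Pbx2, then Meis2 (3.5) and Pbx4 (2.87), which overlapped, then Meis3 (2.54), Pbx3 (0.781) and Pknox2 (0.262).

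**Figure D4:**
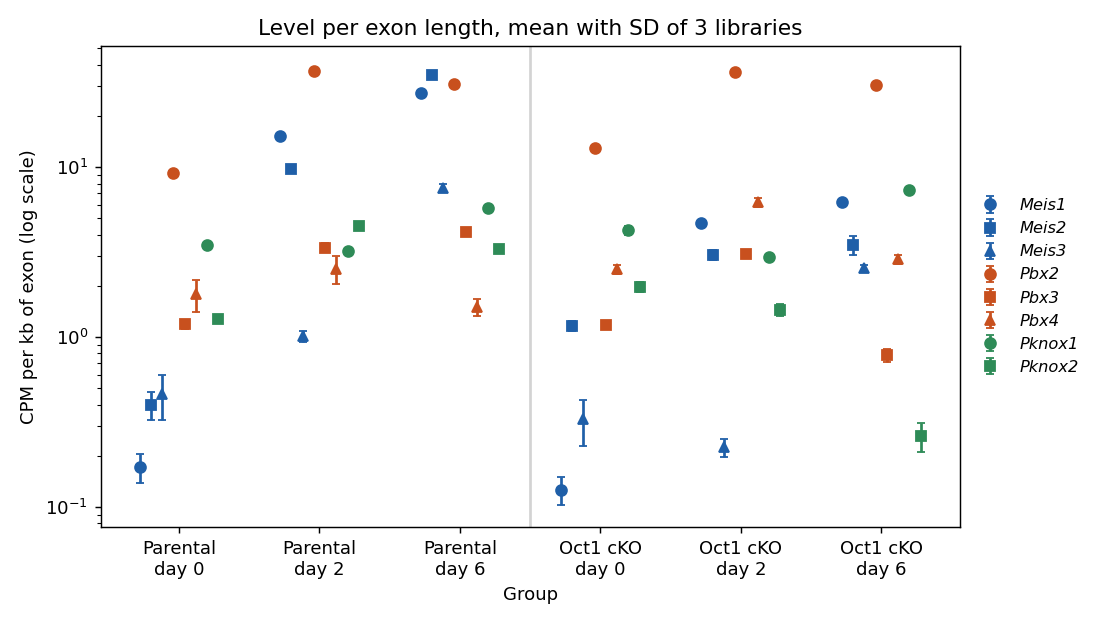
Mean CPM per kb of exon with SD of 3 libraries, on a log axis, for each gene in the 6 groups; blue marks Meis, orange Pbx and green Pknox genes. In parental cells at day 6, Meis2 (35.1) and Meis1 (27.4) stand beside Pbx2 (30.7), and in cKO cells at day 6 Pbx2 (30.3) stands alone above the rest.

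Summed per kb, the 3 Meis genes held 1.03 ± 0.178, 26.1 ± 0.766 and 70.2 ± 1.23 CPM per kb in parental cells at days 0, 2 and 6 and 1.62 ± 0.158, 7.99 ± 0.417 and 12.3 ± 0.678 in cKO cells (SD, n = 3). At day 2 Meis1 took a close share of that sum in both genotypes, 58.9% ± 0.706 in parental and 59.1% ± 0.984 in cKO cells. At day 6 the sum was 39.1% Meis1, 50.1% Meis2 and 10.8% Meis3 in parental cells and 50.8%, 28.4% and 20.8% in cKO cells. At day 0 Meis2 took 38.9% ± 6.95 in parental and 72.1% ± 4.28 in cKO cells. Of the 2 Pknox genes, Pknox2 took 26.8%, 58.6% and 36.5% in parental cells at days 0, 2 and 6, and 31.7%, 32.9% and 3.44% in cKO cells. Among the 3 Pbx genes Pbx2 took 75.6% to 89.2% in every group. Pbx4 took 13.6% ± 1.12 in cKO and 5.91% ± 0.881 in parental cells at day 2.

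Over the 18 libraries the log2 CPM of the 8 genes went together only in part. The highest Pearson correlations were those of Meis1 with Pbx2 (0.92) and Meis1 with Meis2 (0.91), followed by Meis2 with Pbx2 (0.79) and Pbx3 with Pknox2 (0.78). The lowest were those of Meis3 with Pbx4 (-0.56) and Pknox1 with Pknox2 (-0.54). These values describe libraries that fall into 6 groups, each with 3 libraries that lie close together. Among 11968 genes searched, those most like each of the 8 were Ptpn13 (0.994) and Satb1 (0.993) for Meis1, Zbtb5 (0.988) and Lrrn4 (0.985) for Meis2, and Samd14 (0.98) and Cd99l2 (0.977) for Meis3. For the Pbx genes they were Mark4 (0.988) for Pbx2, Ece1 (0.982) and Ctps2 (0.98) for Pbx3, and Pgm3 (0.966) and Smc4 (0.938) for Pbx4. For Pknox1 they were Lcp1 (0.985) and Arhgap23 (0.984), and for Pknox2 Zfp811 (0.981) and Pnma2 (0.974). Pbx4 had the weakest match of the 8. Pnma2 went from 8.75 to 19.3 and 20.5 CPM in parental cells and from 12.4 to 5.78 and 1.02 CPM in cKO cells. It was picked for its likeness to Pknox2, so the shared turn of order between genotypes follows from that choice. Unlike Pknox2, it did not fall from day 2 to day 6 in parental cells.

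The genes with which these cofactors act were read from fixed lists. Of 15 Hox genes of paralogue groups 1 to 5, which pattern the hindbrain and neck, 0 were higher and 14 lower in cKO cells at day 2 (median -1.19), and 3 were higher and 12 lower at day 6 (median -3.0), beside the shares of all genes given above. Hoxc5 was lower at day 6 (135 and 6.41 CPM, -4.39 ± 0.09, edgeR adjusted p = 2.65e-33). Of 20 tested Hox genes of groups 6 to 13, 4 were higher and 11 lower at day 2 (median -0.52) and 2 higher and 14 lower at day 6 (median -2.37 over 19 genes, leaving out 1 listed at 0 in cKO cells). Hoxc8 was lower at day 6 (64.4 and 2.63 CPM, -4.61 ± 0.10, adjusted p = 1.4e-31). At day 0 the counts were 2 higher and 0 lower in the first list, and 5 higher and 1 lower in the second. The first became 2 higher and 2 lower without parental day 0 replicate 3 or without cKO day 0 replicate 2. Most genes of both lists were under 1 CPM in both genotypes at day 0, and Hoxd3 was at 0. Few differences could be detected at such levels. The Hoxb genes lie on chromosome 11 with Meis1.

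Other TALE homeobox genes, the Irx and Tgif genes among them, did not follow the Meis genes at day 6: of 8 tested, 6 were higher and 2 lower (median 0.76), after 1 higher and 5 lower at day 2 (median -0.21) and 2 higher and 0 lower at day 0 (median -0.08), or 1 higher without parental day 0 replicate 2 or 3 or cKO day 0 replicate 3. Irx3, a factor of neural patterning, was lower at day 2 (12.6 and 3.96 CPM, -1.66 ± 0.12, edgeR adjusted p = 7.05e-15) and higher at day 6 (9.77 and 60.8 CPM, 2.64 ± 0.08, adjusted p = 6.71e-27). Irx4 was also higher at day 6 (0.889 and 14.3 CPM, 4.0 ± 0.18, adjusted p = 4.54e-22). Of 10 genes reported in the literature as bound or activated by Meis, Pbx or Pknox proteins, 5 of which are Hox genes counted above, 2 were higher and 6 lower at day 2 and 2 higher and 6 lower at day 6, with 1 higher and 1 lower at day 0, or 1 and 3 without cKO day 0 replicate 2. Their medians were -0.48 over 8 genes, -0.94 over 9 and -1.91 over 9 at days 0, 2 and 6, leaving out genes listed at 0 in a group. Hoxb2, whose enhancer is a textbook target of Pbx and Meis, was lower at day 6 (48.9 and 6.07 CPM, -3.0 ± 0.09, adjusted p = 1.63e-27).

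Of 2 genes for proteins that act on Meis or Pbx proteins, Pbxip1, which binds Pbx and inhibits its complexes, was lower in cKO cells at day 2 (29.6 and 11.1 CPM, -1.43 ± 0.09, edgeR adjusted p = 3.42e-17) and again at day 6, by less (104 and 92.0 CPM, -0.18 ± 0.06, adjusted p = 0.00616). Crbn, a ubiquitin ligase subunit with Meis2 protein among its substrates, was higher at day 2 (37.8 and 55.8 CPM, 0.56 ± 0.06, adjusted p = 2.81e-10) and at day 6 (39.1 and 44.7 CPM, 0.19 ± 0.06, adjusted p = 0.00565). The calls of both genes at day 6 changed with the scaling and with the libraries used. With the DESeq2 size factors and with DESeq2, 1 of the 2 was called higher and 0 lower. The same held without parental day 6 replicate 3 or cKO day 6 replicate 2. With library sizes alone and with scaling factors without chromosome 11, 0 were called higher and 1 lower. Of 16 retinoic acid response genes, 5 were higher and 4 lower in cKO cells at day 0, 2 higher and 14 lower at day 2 (median -0.83), and 6 higher and 10 lower at day 6 (median -0.69).

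Markers of several cell types also differed by genotype and day, and their part in these results was not tested. A sum of CPM is weighted toward its most abundant markers, so it can go against the number of markers called. This was so for the endothelial markers at day 2 and the trophoblast markers at day 0. Summed over 8 pluripotency markers, parental libraries held 6860 to 6990 CPM at day 0, 1170 to 1230 at day 2 and 50.9 to 55.8 at day 6, and cKO libraries held 7940 to 8820, 2670 to 2810 and 195 to 198. In cKO cells 3, 8 and 6 of the 8 were called higher at days 0, 2 and 6, and 0, 0 and 1 lower. Summed over 9 fibroblast markers, parental libraries held 1170 to 1240, 208 to 224 and 4030 to 4330 CPM at the 3 days and cKO libraries 362 to 375, 123 to 153 and 494 to 595, with 8, 5 and 7 of 9 called lower and 0, 2 and 1 higher. The 8 neural markers summed to 353 to 384 CPM in parental and 62.0 to 72.8 CPM in cKO libraries at day 6 (5 lower, 2 higher), and Sox1 was at 0 in the 3 cKO libraries. At day 0 these sums were 420 to 433 and 436 to 503 CPM (3 higher, 4 lower), and at day 2 they were 107 to 116 and 163 to 175 CPM (3 higher, 4 lower). The 6 trophoblast markers summed to less in cKO libraries at day 0 (67.6 to 69.8 and 34.9 to 37.8 CPM, 3 higher, 1 lower) and day 2 (46.3 to 46.7 and 29.9 to 36.6 CPM, 0 higher, 2 lower). At day 6 they summed to more (169 to 185 and 731 to 794 CPM, 6 higher, 0 lower). Of 6 early mesoderm markers 5 were in the table, with sums of 41.7 to 46.6 CPM in parental and 5.51 to 6.42 CPM in cKO libraries at day 2 (3 lower, 0 higher). At day 0 these sums were 2.63 to 3.66 and 3.31 to 4.2 CPM (0 called), and at day 6 they were 6.42 to 8.72 and 6.2 to 7.44 CPM (1 higher, 2 lower). The 9 extraembryonic endoderm markers summed to 10.3 to 12.7 and 13.8 to 15.1 CPM at day 0 (1 higher, 2 lower), with Ttr at 0 in both genotypes. Their sums were 119 to 125 and 137 to 147 CPM at day 2 (3 higher, 3 lower) and 619 to 658 and 653 to 688 CPM at day 6 (7 higher, 2 lower). The 5 endothelial markers summed to 298 to 306 and 119 to 130 CPM at day 0 (0 higher, 2 lower), 50.1 to 60.0 and 76.5 to 85.5 CPM at day 2 (1 higher, 4 lower), and 319 to 335 and 295 to 316 CPM at day 6 (3 higher, 2 lower).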

How the data were processed

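Bulk RNA-seq counts of 18 libraries, 3 in each of 6 groups, were used as deposited by the authors: whole counts of reads per Ensembl gene, not normalized, with no count column left unmatched. Per the submitters' processing notes, Novoalign and DESeq2 1.10.0 were among the tools and mm10 and GRCm38 among the builds, whose roles are unstated. For the counter, annotation release and strand setting, the sources used here give nothing. Libraries were grouped by genotype and day in the labels, and replicate numbers follow sample order and pair nothing.

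Counts were tested with edgeR 4.0.16 in R 4.3.3 (filterByExpr with minimum count 10 and minimum total 15, TMM factors, robust estimateDisp and glmQLFit, glmQLFTest) in 1 fit of 18 libraries with a coefficient per group, which left 18352 genes and gave 9 comparisons. The SE is the log2 fold change divided by the root of the F statistic. CPM used TMM effective library sizes, and correlations were taken on log2 CPM (prior count 2). The script was tested on simulated data with 200 genes changed 2-fold in the cKO group at day 2. It recovered 75.5% of them, and 7.36% of its calls were false. Far more genes were called in the real data, so these rates do not measure the errors of the calls given here. Coordinates and exon lengths came from GENCODE M21, in which all 21995 IDs were found. The lowest count of a member in a library was 9, so low levels are imprecise.

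Named genes were the 8 members, Pou2f1, the 2 genes most correlated with each member (mean log2 CPM of at least 1, official symbol) and, for a list, up to 3 of its called genes by adjusted p. The members, lists and this rule were chosen with earlier results of these data known. Alternatives were DESeq2 size factors in edgeR, library sizes alone, scaling factors without chromosome 11, fits limited to the compared libraries, DESeq2 1.42.0, no low-count filter, and leaving out each library. Some genes that fall under this rule are left out of the text.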

Additional observations from a re-analysis of the deposited data

Results flagged for a closer look

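The change over a step differed between genotypes for 7 of the 8 genes from day 0 to day 2 and for 5 from day 2 to day 6, each by edgeR's interaction term, given below as the change in Oct1 cKO cells minus that in parental cells. Over all tested genes the same term was called higher for 30.1% and lower for 26.9% at the first step and for 31.5% and 32.0% at the second, so the number called among the 8 at the second step is close to the background. From day 0 to day 2 the values were -1.24 ± 0.23 (SE) for Meis1 (adjusted p = 1.27e-05), -3.21 ± 0.14 for Meis2 (adjusted p = 1.72e-19) and -1.66 ± 0.37 for Meis3 (adjusted p = 0.000221). They were -0.52 ± 0.07 for Pbx2 (adjusted p = 1.22e-07), which was higher in cKO cells at day 0 and not called at day 2, and 0.80 ± 0.20 for Pbx4 (adjusted p = 0.000892). Pknox1 had -0.40 ± 0.09 (adjusted p = 0.000513) and Pknox2 -2.27 ± 0.11 (adjusted p = 2.72e-19). From day 2 to day 6 the values were -0.44 ± 0.07 for Meis1 (adjusted p = 1.09e-06), -1.65 ± 0.09 for Meis2 (adjusted p = 5.48e-17), -2.29 ± 0.12 for Pbx3 (adjusted p = 4.84e-19), 0.47 ± 0.09 for Pknox1 (adjusted p = 1.62e-05) and -2.0 ± 0.14 for Pknox2 (adjusted p = 1.72e-15). All 12 were called in each of the 24 alternatives.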

How the results depend on the processing

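Of 1728 member values under alternatives (8 genes, 9 comparisons, 24 alternatives), 1663 kept their direction and side of the threshold, 6 lost a call, 25 gained one and 34 changed sign. The number of the 8 genes called stayed within 1.5 times its main value in every comparison and alternative, except at day 2 between genotypes, where library sizes alone called 8 (5 in the design reported, both by edgeR). Values that changed sign were these. Pbx3 at day 0 between genotypes gave 0.00 with the DESeq2 size factors and 0.00 with DESeq2, and -0.05 to 0.02 when a library was left out. Pbx2 between genotypes gave -0.06 to 0.02 at day 2 without single libraries. At day 6 it gave 0.05 with the DESeq2 size factors, 0.03 with no filter, 0.04 with DESeq2 and -0.04 to 0.04 without single libraries. Its genotype difference over days 2 to 6 gave 0.10 with the DESeq2 size factors, 0.07 with no filter, 0.10 with DESeq2, 0.09 with only the libraries compared and -0.03 to 0.08 without single libraries. With library sizes alone, parental day 2 against day 0 gave 0.21 for Pknox1 (-0.12 as reported, called higher here, edgeR adjusted p = 0.00364) and 0.02 for Pou2f1 (-0.32 as reported, a call that was lost). The genotype difference of Pou2f1 over days 0 to 2 (-0.08 as reported, not called) ran from -0.24 to 0.00 without single libraries, and -0.24 was called (edgeR adjusted p = 0.00533) without cKO day 0 replicate 3. The cause was not tested. Among the lists, the count of other TALE genes called at day 0 went from 2 to 1 with library sizes alone, with scaling factors without chromosome 11 and with only the libraries compared. Library sizes alone moved the median of all genes by -0.19 at days 2 and 6 between genotypes, 0.34 and -0.18 over the parental steps, 0.16 and -0.19 over the cKO steps and -0.17 for the first interaction. Genes at about 1 CPM (Meis1 and Meis3 at day 0) rest on few counts, so small differences there were not detectable at this depth. Meis3 was lowest in cKO cells at day 2, with a mean of 0.712 CPM and 10 to 12 counts per library. Its genotype difference at day 2, its cKO steps and its interaction values all use those libraries. No paired analysis was possible because replicate numbers were assigned in sample order and no label links libraries across groups.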
